A study of Mus musculus with 12 samples.

Results

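Solute carriers are membrane proteins that move amino acids, ions, metals, nucleotides, sugars and metabolites across the plasma membrane and the membranes of organelles. Their genes were selected in messenger RNA libraries of mouse early thymic progenitors, cells newly arrived in the thymus from which T cells arise. A gene was kept when its symbol consisted of Slc, a family number, a letter and a member number, and when it reached at least 1 RPKM in at least 4 of the 12 libraries. RPKM are reads scaled by the length of the transcript and the size of the library. Of 222 such symbols among the 13016 genes of the table, 4 were set aside by name, the glucose carriers Slc2a1 and Slc2a3 and the lactate and pyruvate carriers Slc16a1 and Slc16a3. Of the remaining 218 symbols, 163 reached the threshold and 55 did not. The 163 genes belonged to 42 carrier families, of which 17 had at least 3 of the 163 and 10 had a single one, and were ordered here into 13 groups by the cargo for which each family is best known.

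The libraries came from 3 groups of 4, each library made from 100 sorted cells of C57BL/6 mice with a full-length cDNA kit. The cells labelled dKO_Flt3ITD carried floxed alleles of Ezh2 and Runx1, the Rag1Cre recombinase and 1 Flt3 allele with an internal tandem duplication (Ezh2 fl/fl and Runx1 fl/fl with Rag1Cre+, and Flt3 ITD/+). The cells labelled dKO carried the same floxed alleles and Rag1Cre without the duplication, and control cells carried the floxed alleles only. Ezh2 is the histone methyltransferase of Polycomb repressive complex, Runx1 a transcription factor needed to form blood cells and Flt3 a cytokine receptor that the duplication activates. Rag1Cre acts from the Rag1 promoter, so deletion is limited to cells that have used that promoter. Whether the 4 libraries of a group stem from different mice is not stated in the labels, and p-values below reflect only how much these libraries vary, which may be technical.

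Carriers fall into families by sequence. The Slc25 family lies mainly in the inner mitochondrial membrane, Slc35 in the Golgi and endoplasmic reticulum, and Slc30 and Slc39 move zinc out of and into the cytosol. Proliferating lymphoid progenitors take up amino acids largely through the Slc38, Slc1, Slc7 and Slc43 families, and several Slc7 carriers reach the cell surface only as a pair with the heavy chain Slc3a2. Citrate that Slc25a1 exports from mitochondria is a source of cytosolic acetyl-CoA for lipid synthesis and protein acetylation.

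The whole reads behind the values totalled 12924981 to 32763597 per library, and 121665 to 269891 of them lay in the 163 carrier genes. Ezh2 averaged 16.4 ± 5.59, 22.6 ± 5.87 and 39.8 ± 5.83 RPKM (SD, n = 4 each) in dKO_Flt3ITD, dKO and control libraries, and Runx1 47.5 ± 11.8, 46.4 ± 11.1 and 21.2 ± 4.57 RPKM. Reads from exons that stay in place after recombination enter these values, which leaves the Runx1 deletion unchecked. Control 1 correlated least with the rest, at a mean r of 0.786 over the tested genes. The early thymic progenitor markers Kit and Cd34 were found in all 12 libraries. Summed, 7 such markers had 284 to 450 RPKM in dKO_Flt3ITD, 334 to 431 in dKO and 463 to 717 in control libraries. Both mutant groups thus lay below control. Cd34 supplied the largest part of these sums, averaging 198, 203 and 345 RPKM in dKO_Flt3ITD, dKO and control libraries. The median log2 fold change of the 7 markers against control was −0.84 in dKO_Flt3ITD and −0.70 in dKO. Of the 7, 4 and 3 had an unadjusted p under 0.05 (13.4% and 9.18% of all genes). Cd34 had −0.78 and −0.77, and Il7r −1.05 and 1.37. Kit stood at 39.5 to 78.8 RPKM in dKO_Flt3ITD, 38.2 to 68.3 RPKM in dKO and 44.7 to 69.9 RPKM in control libraries. Ccr9 was listed at 0 in 4 of the 8 mutant libraries and was lower in dKO_Flt3ITD than in control (log2 fold change −3.26 ± 0.57, SE, limma adjusted p = 0.00543). It reached 1 RPKM in 6 libraries, including all 4 of control, so it entered the test only with the group where it was high. With voom on recovered reads Ccr9 did not pass. In such bulk libraries, fewer cells of a type and less RNA per cell cannot be told apart.

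Most carriers were expressed at a low level. The median of the 163 mean levels over 12 libraries was 4.49 RPKM, against 10.2 RPKM for the 10690 genes tested. Of the 163 carriers, 50 averaged at least 10 RPKM, 85 less than 5 RPKM and 5 at least 100 RPKM. In every library 69 carriers reached 1 RPKM, while 34 (20.9%) were listed at 0 in at least 1 library, against 13.8% of tested genes. Together the carriers made up 0.458% to 0.719% of all RPKM in dKO_Flt3ITD, 0.618% to 0.723% in dKO and 0.621% to 0.718% in control libraries, so the ranges overlapped. The spread between libraries of a group, on the log2(RPKM + 1) scale, had a median SD of 0.81 over the carriers and 0.72 over all tested genes. Among carriers averaging 1 to 5 RPKM it was 0.91 against 0.86 for all genes of that level, and at 20 to 100 RPKM it was 0.59 against 0.61. Just inside the threshold were Slc36a4, a lysosomal amino acid carrier, and Slc30a1, a zinc exporter, whose values in the library that ranked 4 from the top were 1.02 and 1.08 RPKM. Just outside were the peptide carrier Slc15a1 at 0.976 RPKM and the glucose carrier Slc2a8 at 0.969 RPKM. Without the libraries of 1 group, fewer carriers would have passed: 15 passed only with the dKO_Flt3ITD libraries, 16 only with the dKO libraries and 11 only with the control libraries.

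**Figure D1:**
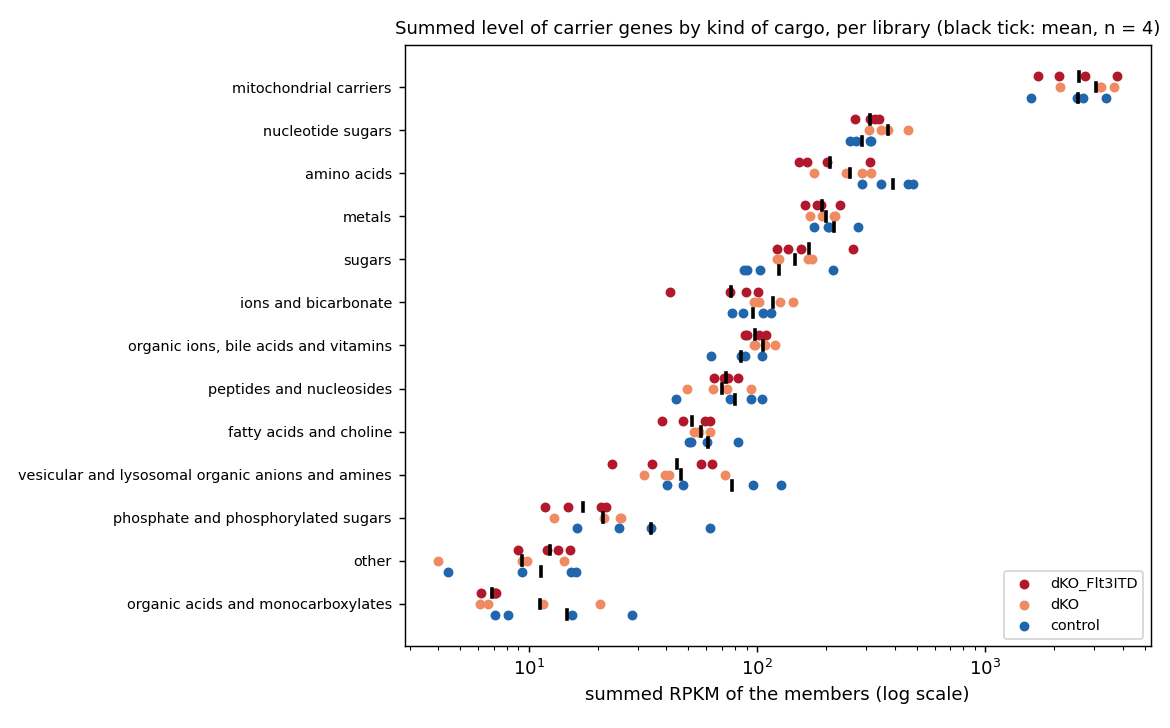
Summed RPKM of the carrier genes of each cargo group (log axis), with 1 point per library, the dKO_Flt3ITD libraries above the dKO and control libraries of each row, and a black tick at the group mean (n = 4). The mitochondrial carriers sit between 1589.6 and 3758 RPKM, above every other group, and the amino acid carriers are the row where most control points lie right of the mutant points.

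The highest levels were those of mitochondrial carriers, as the plot of summed levels by cargo shows. The adenine nucleotide exchanger Slc25a5, which trades cytosolic ADP for mitochondrial ATP, averaged 1593 ± 696 RPKM in dKO_Flt3ITD, 2060.0 ± 528 RPKM in dKO and 1626 ± 588 RPKM in control libraries (SD, n = 4 each) and supplied 64.7% of the summed level of the 35 mitochondrial carriers. The phosphate carrier Slc25a3 came next with 282 ± 52.4, 256 ± 31.7 and 252 ± 54.1 RPKM, followed by a second ADP/ATP exchanger, Slc25a4, with 267 ± 141, 238 ± 74.0 and 187 ± 76.4 RPKM, in the same order of groups. Slc25a3 and Slc25a4 overlapped in each group, and every Slc25a5 value lay above both. Slc25a4 and Slc25a5 are close copies of each other, and how reads matching both were counted is not given in the sources used here. Next in level were the sugar carrier Slc50a1 (152 ± 60.3, 139 ± 26.6 and 114 ± 61.7 RPKM), the neutral amino acid carrier Slc38a2 and the peroxisomal cofactor carrier Slc25a17 (62.5 ± 28.8, 98.0 ± 32.9 and 103 ± 33.0 RPKM). The other 9 of the 15 carriers with the highest mean level lay between 40.4 and 71.0 RPKM over 12 libraries. They were Slc35d3, the zinc importer Slc39a1, the malate and oxoglutarate carrier Slc25a11, the endoplasmic reticulum carrier Slc35b1, the nucleoside carrier Slc29a1, the glutathione carrier Slc25a39, the choline carrier Slc44a2, the aspartate and glutamate carrier Slc25a12 and Slc35a4. None of these 15 passed the test in any comparison, with limma or with voom on recovered reads. At an unadjusted p under 0.05 there were 2 in dKO_Flt3ITD against control, 3 in dKO against control and 0 in dKO_Flt3ITD against dKO, where the shares of all genes were 13.4%, 9.18% and 7.71%.

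Between the groups few carriers differed beyond the spread of the libraries. In dKO_Flt3ITD against control, 2 of 163 carriers (1.23%) passed limma's test at an adjusted p under 0.05, with Benjamini-Hochberg adjustment over 10690 genes, against 1.5% of all genes tested. Slc25a1 rose, as did 0.992% of all genes, and Slc26a11 fell, as did 0.505%. At an unadjusted p under 0.05 there were 17 carriers (10.4%, against 13.4% of all genes). The libraries of the groups did not overlap for 13 carriers (7.98%), against 7.67% of all tested genes, of which 3 were higher (4.16% of all genes) and 10 were lower (3.51% of all genes). In dKO against control no carrier passed the test, against 1.02% of all genes. At an unadjusted p under 0.05 there were 21 carriers (12.9%, against 9.18% of all genes), and voom on recovered reads also called none. The libraries did not overlap for 14 carriers (8.59%), against 6.3% of all tested genes. Of these 8 were higher (3.93% of all genes) and 6 were lower (2.38% of all genes). In dKO_Flt3ITD against dKO no carrier passed, where 0% of all genes did. At an unadjusted p under 0.05 there were 10 carriers (6.13%, against 7.71% of all genes), voom called none, and the libraries did not overlap for 5 carriers (3.07%), against 4.28% of all genes, 2 higher (2.08% of all genes) and 3 lower (2.2% of all genes). In each comparison the share of carriers that passed the test was at or below that of all genes.

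The median difference lay near 0 for carriers and for all genes. The median log2 fold change over the 163 carriers was −0.08 in dKO_Flt3ITD against control, −0.01 in dKO against control and −0.04 in dKO_Flt3ITD against dKO, where the medians of all tested genes were 0.0, 0.01 and 0.0. Fold changes are differences of log2(RPKM + 1), so those of genes at low RPKM are understated. A positive fold change was found for 73, 80 and 77 of the 163 carriers in these comparisons, against 50.1%, 50.7% and 50.3% of all genes. Both mutant groups were compared with the same 4 control libraries, so carriers that lie apart from control in both comparisons are not independent observations of the same difference.

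**Figure D2:**
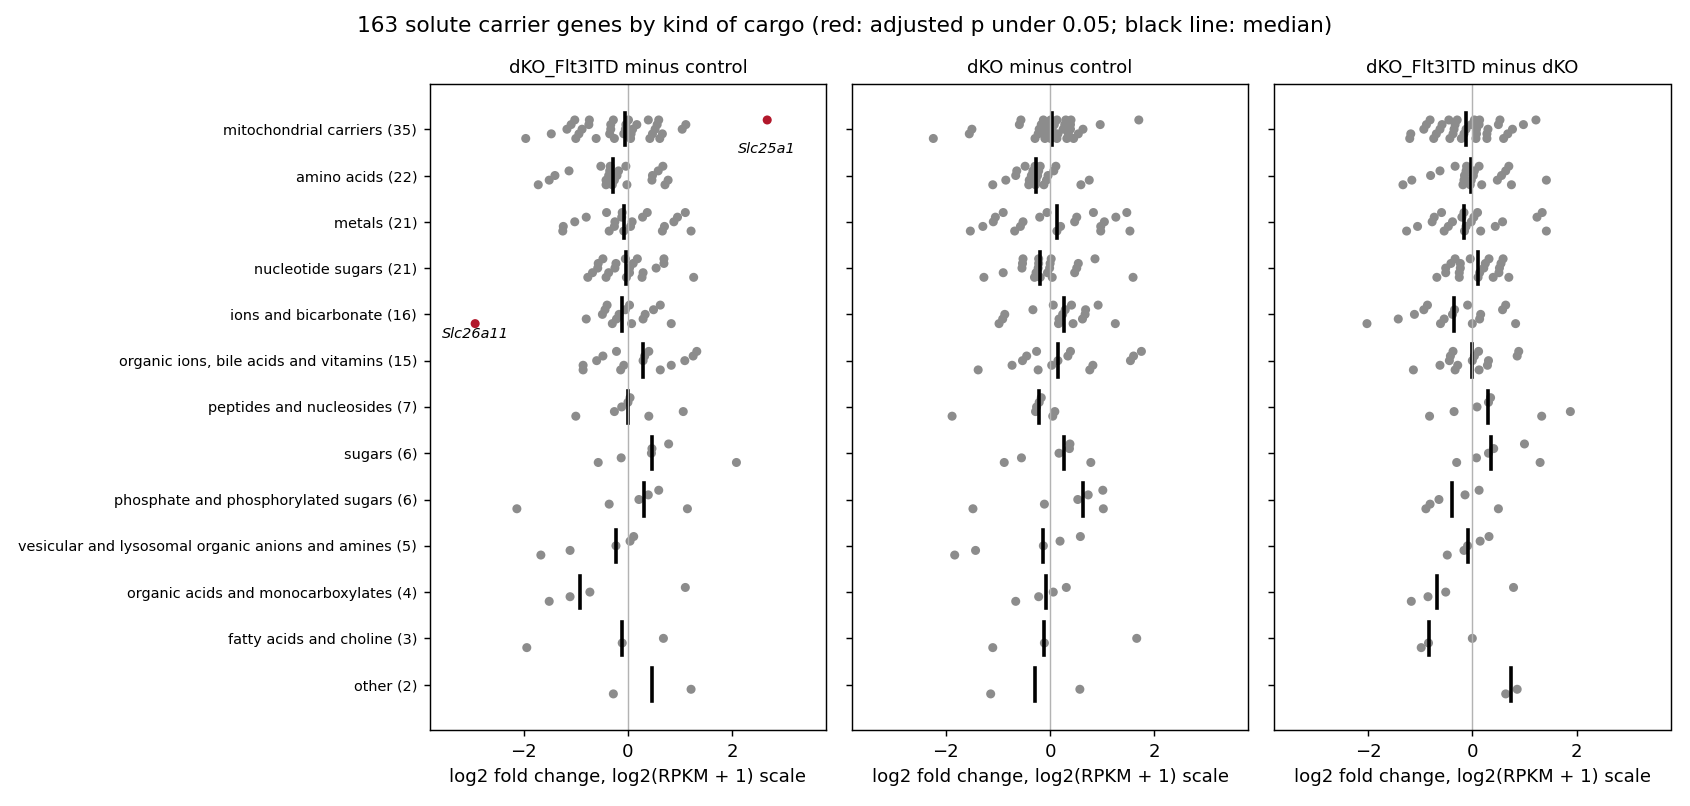
Log2 fold changes on the log2(RPKM + 1) scale of the 163 carriers, 1 point per gene, in rows by cargo with the number of genes in parentheses, for the 3 comparisons. Red points passed an adjusted p of 0.05 and black lines are row medians. The only red points are Slc25a1 at 2.67 and Slc26a11 at −2.93, both in dKO_Flt3ITD against control. The row medians of the 35 mitochondrial carriers lie between −0.12 and 0.04. That of the 22 amino acid carriers is −0.28 in each mutant group against control.

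Slc25a1, the mitochondrial citrate carrier, was the carrier that rose. It had 36.8, 14.6, 43.5 and 56.2 RPKM in dKO_Flt3ITD libraries, 12.4, 17.6, 23.3 and 15.5 RPKM in dKO libraries and 5.98, 3.86, 10.2 and 1.403 RPKM in control libraries. The highest control library, at 10.2 RPKM, lay below the lowest library of either mutant group, and 3 of the 4 dKO_Flt3ITD libraries lay above every dKO library. The gene lies on chromosome 16, 17925223 to 17928219, minus strand (GRCm38). Its log2 fold change was 2.67 ± 0.51 (SE) in dKO_Flt3ITD against control, with a limma adjusted p of 0.0111. In dKO against control it was 1.70 ± 0.51, which did not pass (adjusted p = 0.169), and in dKO_Flt3ITD against dKO 0.98 ± 0.51 (adjusted p = 0.688). The call in dKO_Flt3ITD held under 18 of 20 alternative settings. It was lost with voom on recovered reads (adjusted p = 0.110) and without the 3 libraries numbered 1 (adjusted p = 0.0581), where the fold changes were 3.01 and 2.75.

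Slc26a11, a carrier of sulfate and other anions, was the carrier that fell. It had 1.01, 0.319, 3.41 and 2.68 RPKM in dKO_Flt3ITD libraries, 11.7, 16.1, 3.42 and 11.1 RPKM in dKO libraries and 28.1, 5.31, 18.3 and 40.1 RPKM in control libraries. All dKO_Flt3ITD libraries lay below all control libraries and below all dKO libraries, the nearest being 3.41 RPKM in dKO_Flt3ITD 3 and 3.42 RPKM in dKO 3. The gene lies on chromosome 11, 119355557 to 119381079, plus strand. The log2 fold change was −2.93 ± 0.63 in dKO_Flt3ITD against control (limma adjusted p = 0.0249), −0.91 ± 0.63 in dKO against control (adjusted p = 0.779) and −2.02 ± 0.63 in dKO_Flt3ITD against dKO (adjusted p = 0.391). The call was less firm than that of Slc25a1, since it held under 11 of 20 alternatives. It was lost without a filter, with array weights, with voom and without the 3 libraries numbered 1, and the adjusted p over all alternatives reached 0.193. It was also lost when control 1, control 3, control 4, dKO_Flt3ITD 1 or dKO_Flt3ITD 2 alone was left out, with fold changes of −2.94 to −2.57 and adjusted p of 0.0637 to 0.0908.

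**Figure D3:**
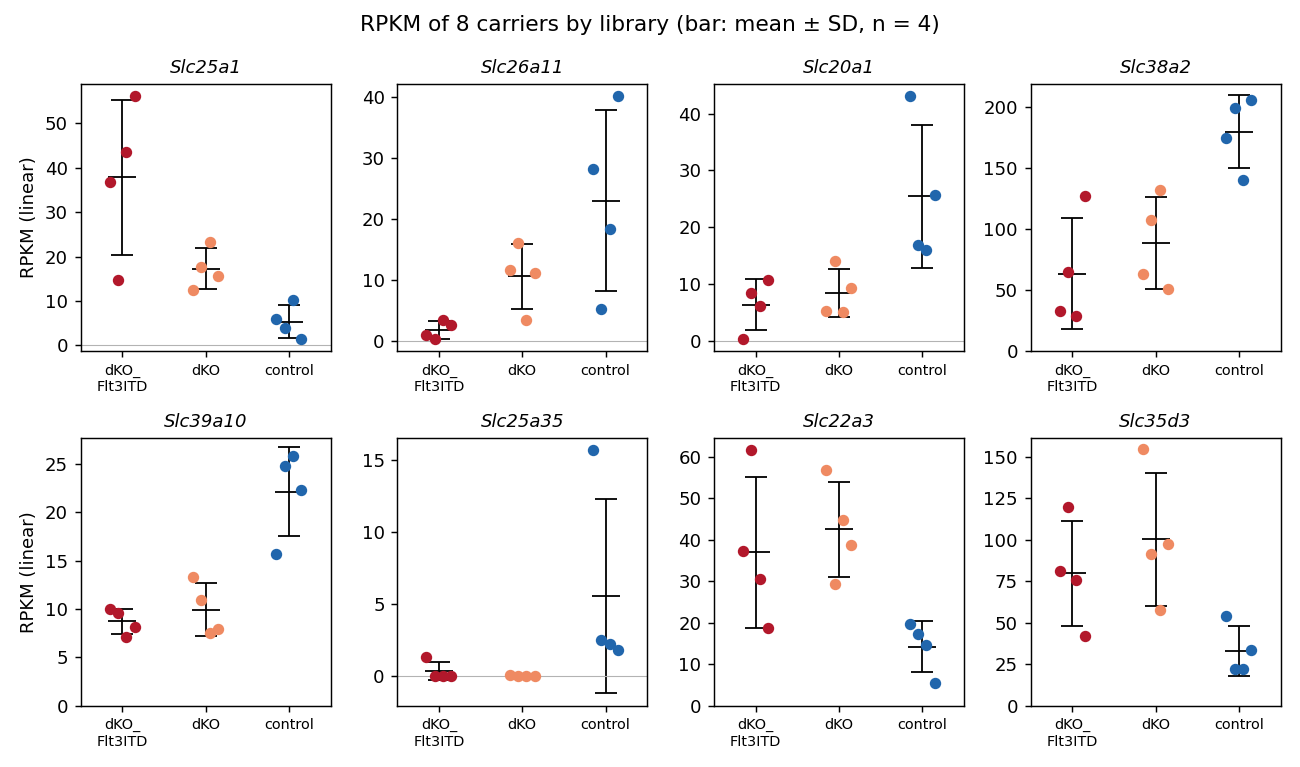
RPKM on linear axes of 8 carriers, with 1 point per library in the order dKO_Flt3ITD, dKO and control, and bars at the mean ± SD (n = 4 each). All control points of Slc25a1 lie below all mutant points, the control points of Slc20a1, Slc38a2, Slc39a10 and Slc25a35 lie above all mutant points, and the control points of Slc22a3 and Slc35d3 lie below all dKO points.

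The promoter sequences of carriers that lay apart from control in both mutant groups are shown so that the letters before their start sites can be compared. They are the 250 bases before the start site, 5′ to 3′, from RefSeq on build GRCm38.p6. A window was available with an annotated transcript start within 100 bases for Slc25a1, Slc20a1 and Slc38a2. Capitals mark the letters CACGTG, an E-box, and TGTGGT or its reverse complement ACCACA, letters that Runx proteins are known to bind.
Slc25a1, chr16:17928220-17928469, minus strand: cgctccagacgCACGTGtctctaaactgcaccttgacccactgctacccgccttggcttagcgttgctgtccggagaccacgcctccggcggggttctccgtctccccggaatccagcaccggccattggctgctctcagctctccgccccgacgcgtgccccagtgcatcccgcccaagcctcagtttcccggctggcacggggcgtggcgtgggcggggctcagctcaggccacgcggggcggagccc
Slc20a1, chr2:129198523-129198772, plus strand: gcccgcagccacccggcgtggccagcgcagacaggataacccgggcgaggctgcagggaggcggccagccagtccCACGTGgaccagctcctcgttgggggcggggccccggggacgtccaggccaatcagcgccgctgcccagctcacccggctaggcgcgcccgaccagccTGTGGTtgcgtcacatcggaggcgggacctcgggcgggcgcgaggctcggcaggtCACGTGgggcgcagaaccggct
Slc38a2, chr15:96699729-96699978, minus strand: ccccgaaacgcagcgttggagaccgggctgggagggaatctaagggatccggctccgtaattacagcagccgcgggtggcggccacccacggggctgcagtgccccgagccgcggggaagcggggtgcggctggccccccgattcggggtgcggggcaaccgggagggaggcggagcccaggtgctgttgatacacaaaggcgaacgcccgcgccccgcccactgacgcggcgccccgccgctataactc
Counting from 1 at the 5′ end, the Slc25a1 window held the E-box letters at position 12 and the Slc20a1 window at positions 76 and 229, with TGTGGT at position 174. Neither set of letters was found in the Slc38a2 window. No sites searched overlapped each other in these windows. Over windows of 300 bases, which run 50 bases past the start site, the Runx letters were found on either strand for 19 of 122 carriers with a window (15.6%) and for 1209 of 8003 tested genes (15.1%). The E-box letters were found for 24 of 122 carriers (19.7%) and for 984 of 8003 tested genes (12.3%). Such matches describe the sequence and do not show binding.

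Among the other mitochondrial carriers no further gene passed. The median log2 fold change of the 35 genes was −0.05 in dKO_Flt3ITD and 0.04 in dKO, each against control, and 16 and 21 of the 35 were positive. Their summed level was 2576 ± 893 RPKM in dKO_Flt3ITD, 3046 ± 648 RPKM in dKO and 2537 ± 731 RPKM in control libraries (SD, n = 4 each), a range of 1706 to 3758, 2129 to 3653 and 1589.6 to 3364 RPKM, so the groups overlapped. The NAD+ carrier Slc25a51 had 12.5, 14.4, 13.2 and 30.4 RPKM in dKO_Flt3ITD libraries, 21.5, 18.6, 25.1 and 27.4 RPKM in dKO libraries and 35.6, 29.4, 36.2 and 36.9 RPKM in control libraries. Its dKO libraries lay below all control libraries, while the highest dKO_Flt3ITD library lay above the lowest control library. The calcium-regulated ATP carrier Slc25a23 was below every control library in all dKO_Flt3ITD libraries, with 1.80, 1.28, 1.63 and 0.931 RPKM in dKO_Flt3ITD against 10.99, 2.73, 1.81 and 3.16 RPKM in control libraries. Neither difference passed the test.

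A pair of low mitochondrial carriers lay apart from control in dKO. Slc25a35 had 1.27, 0, 0 and 0 RPKM in dKO_Flt3ITD libraries, 0.0328, 0, 0 and 0 RPKM in dKO libraries and 15.7, 2.499, 2.17 and 1.78 RPKM in control libraries. It reached 1 RPKM in all 4 control libraries and in 1 other, so it entered the test only through the group where it was high. It was listed at 0 in 6 of the 8 mutant libraries, and the highest value of each group was in its library numbered 1. The log2 fold changes against control were −1.96 ± 0.55 in dKO_Flt3ITD (limma adjusted p = 0.0998) and −2.24 ± 0.55 in dKO (adjusted p = 0.0650), so neither passed. An exon of Slc25a35 overlaps Rangrf on the other strand, which averaged 57.99, 46.13 and 62.48 RPKM in dKO_Flt3ITD, dKO and control libraries. Whether strand was used in counting is not given in the sources used here, so reads of this pair cannot be told apart. Slc25a53 had 2.14, 1.48, 5.52 and 3.87 RPKM in dKO_Flt3ITD, 0.0184, 2.76, 0.250 and 0.742 RPKM in dKO and 3.54, 3.23, 4.65 and 4.67 RPKM in control libraries. Its dKO libraries lay below all control libraries (log2 fold change −1.55 ± 0.52, adjusted p = 0.242), whereas its dKO_Flt3ITD libraries overlapped with control. Slc25a53 lies on chromosome X, 136981116 to 137038302, minus strand.

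Most of the 22 amino acid carriers had negative fold changes in both mutant groups, and none of these differences passed with limma or voom. Of the 22, 4 in dKO_Flt3ITD and 1 in dKO had an unadjusted p under 0.05 against control, as did 13.4% and 9.18% of all genes. Their summed level was 208 ± 72.4 RPKM in dKO_Flt3ITD, 256 ± 60.9 RPKM in dKO and 394 ± 92.3 RPKM in control libraries (SD, n = 4 each). The ranges were 153 to 312 RPKM in dKO_Flt3ITD, 177 to 317 RPKM in dKO and 287 to 483 RPKM in control libraries, so both mutant ranges overlapped with control. In dKO_Flt3ITD against control 6 of 22 fold changes were positive and in dKO against control 4 of 22, with a median of −0.28 in each. The median of the 10690 genes was 0.0 and 0.01 in the same comparisons. The medians ranged from −0.43 to −0.02 in dKO_Flt3ITD and from −0.41 to −0.08 in dKO when 1 library was left out, each nearest to 0 without control 1. Without the 3 libraries numbered 1 they were 0.16 and −0.07, and with array weights 0.03 and −0.13, so the sign in dKO_Flt3ITD turned in both. Leaving out dKO_Flt3ITD 1 or control 3 moved the median of dKO_Flt3ITD to −0.12 or −0.43, and leaving out dKO 4 moved that of dKO to −0.14. Rescaling every library to the same sum of RPKM, which moved the median of all genes to −0.21 in dKO_Flt3ITD, gave a median of −0.48 for these carriers.

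Slc38a2, a sodium-coupled carrier of small neutral amino acids such as alanine and glutamine, supplied 38.7% of that sum. It had 32.8, 65.1, 29.3 and 128 RPKM in dKO_Flt3ITD libraries, 63.4, 107, 132 and 51.2 RPKM in dKO libraries and 174, 199, 140.2 and 206 RPKM in control libraries. Every mutant library lay below every control library, and dKO_Flt3ITD 4 and dKO 3 came nearest to control 3. Its log2 fold changes were −1.72 ± 0.43 in dKO_Flt3ITD (limma adjusted p = 0.0593) and −1.10 ± 0.43 in dKO (adjusted p = 0.387), each against control, and neither passed. Without dKO_Flt3ITD 4 the first passed, with −2.13 and an adjusted p of 0.00784. The related carrier Slc38a1, which takes up glutamine, had 6.38, 4.94, 5.79 and 7.09 RPKM in dKO_Flt3ITD libraries, 8.37, 15.3, 12.7 and 9.59 RPKM in dKO libraries and 26.5, 15.1, 7.42 and 13.8 RPKM in control libraries. Its dKO_Flt3ITD libraries lay below all dKO and all control libraries, though the highest of them, 7.09 RPKM, was close to control 3 at 7.42 RPKM (log2 fold change −1.13 ± 0.44 against control, adjusted p = 0.256). Slc38a1 and Slc38a2 lie next to each other on chromosome 15, 44479 bases apart on the minus strand.

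The Slc43 pair had lower mean levels in dKO_Flt3ITD than in both other groups, without passing the test. Slc43a3, a carrier of purine nucleobases, had 20.7, 8.27, 6.62 and 17.7 RPKM in dKO_Flt3ITD libraries, 27.3, 35.1, 25.7 and 24.7 RPKM in dKO libraries and 61.9, 23.0, 16.7 and 70.0 RPKM in control libraries. Its dKO_Flt3ITD libraries lay below all dKO libraries (log2 fold change −1.16 ± 0.49, limma adjusted p = 0.591) and overlapped with control (−1.51 ± 0.49, adjusted p = 0.159). Slc43a1, a carrier of large neutral amino acids 72985 bases away on chromosome 2, had fold changes of −1.33 ± 0.52 against dKO and −1.40 ± 0.52 against control (adjusted p = 0.564 and 0.241). Genes of 1 family within 200000 bases of each other formed 5 such pairs in all. In dKO_Flt3ITD against control both members were negative for Slc38a1 and Slc38a2 (−1.13 and −1.72) and for Slc43a1 and Slc43a3 (−1.40 and −1.51), and both were positive for the copper carriers Slc31a1 and Slc31a2 (0.95 and 1.21). In the Slc22 cluster on chromosome 11, Slc22a5 and Slc22a21 had −0.60 and 0.29, and Slc22a4 was listed at 0 in control libraries.

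The heavy chain Slc3a2 had 24.5, 18.2, 17.4 and 30.1 RPKM in dKO_Flt3ITD libraries, 17.6, 31.7, 27.5 and 21.04 RPKM in dKO libraries and 49.8, 21.1, 22.1 and 43.9 RPKM in control libraries. The groups overlapped, with 2 control libraries above all mutant libraries and the other 2 among them (log2 fold change −0.52 ± 0.39 in dKO_Flt3ITD and −0.40 ± 0.39 in dKO, each against control). Among its light chains, Slc7a5, the large neutral amino acid carrier of activated lymphocytes, had 5.58 ± 2.86, 5.88 ± 7.91 and 4.58 ± 5.28 RPKM (SD, n = 4 each) in dKO_Flt3ITD, dKO and control libraries. Slc7a6, which exchanges cationic for neutral amino acids, had 11.8 ± 3.16, 12.3 ± 4.18 and 6.93 ± 2.28 RPKM and fold changes of 0.71 and 0.75 in dKO_Flt3ITD and dKO against control. The light chains Slc7a7, Slc7a8 and Slc7a11 were below the threshold. Of the Slc7 genes that need no heavy chain, the arginine carrier Slc7a1 had 3.04 ± 1.37, 3.59 ± 1.71 and 4.23 ± 0.896 RPKM, Slc7a4 2.35 ± 1.32, 1.06 ± 0.901 and 1.39 ± 1.37 RPKM and Slc7a14 14.9 ± 3.802, 16.6 ± 3.81 and 19.7 ± 8.30 RPKM. The glutamine carrier Slc1a5 stood at 17.9 ± 10.6, 18.1 ± 14.1 and 24.3 ± 16.4 RPKM and the taurine carrier Slc6a6 at 8.64 ± 4.21, 8.88 ± 4.49 and 11.2 ± 6.81 RPKM. None of these genes passed the test in any comparison.

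**Figure D4:**
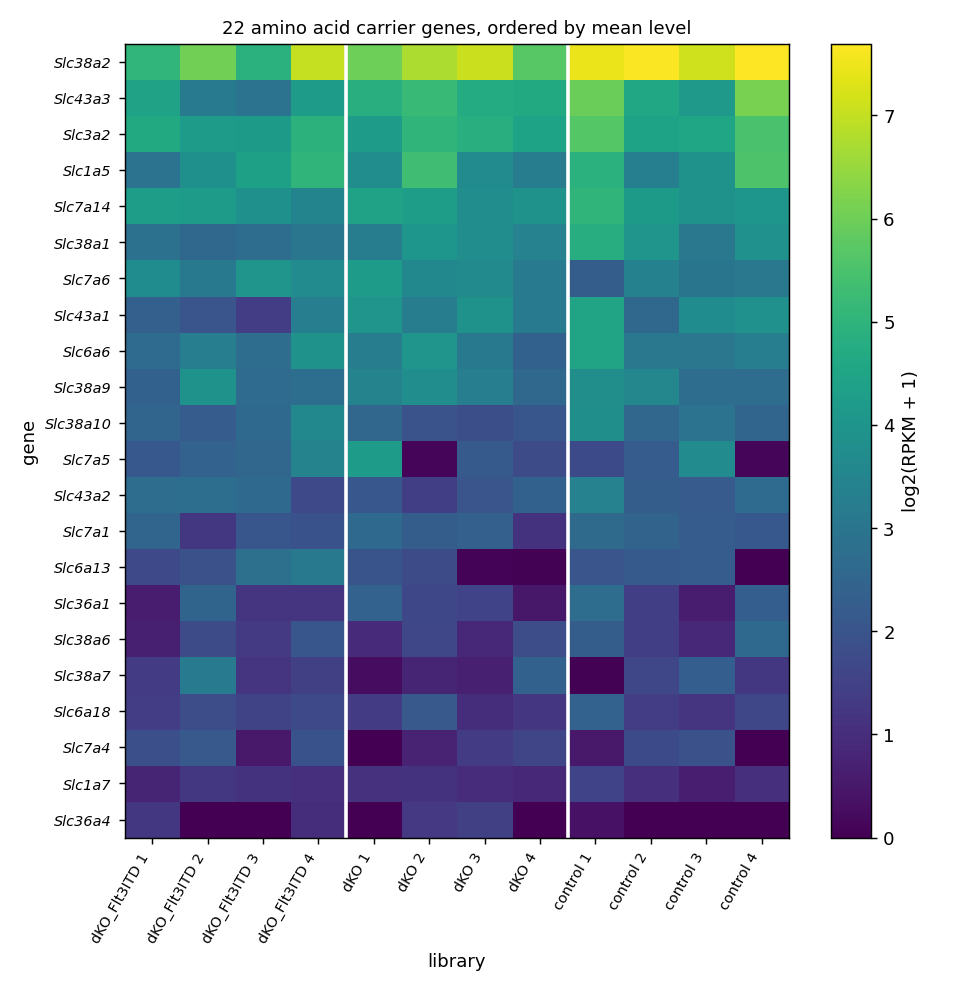
Log2(RPKM + 1) of the 22 amino acid carriers (rows, ordered by mean level) in the 12 libraries (columns, dKO_Flt3ITD, dKO and control from left to right), lighter colours standing for higher levels. The top row, Slc38a2, is lightest in the 4 control columns, at 140 to 206 RPKM, and the lower rows differ between libraries of the same group.

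The 21 metal carriers had summed levels of 192 ± 28.9 RPKM in dKO_Flt3ITD, 199.6 ± 22.8 RPKM in dKO and 216 ± 42.6 RPKM in control libraries (SD, n = 4 each), with overlapping ranges, and none passed the test with limma or voom. Of the 21, 2 in dKO_Flt3ITD and 5 in dKO had an unadjusted p under 0.05 against control, as did 13.4% and 9.18% of all genes. The plot of metal carriers by library shows how far libraries of 1 group differed. The zinc importer Slc39a1 was the highest at 58.7 ± 36.0 RPKM in dKO_Flt3ITD, 54.7 ± 1.27 RPKM in dKO and 64.4 ± 16.6 RPKM in control libraries. Slc39a10, a zinc importer of the plasma membrane, had 9.97, 9.61, 7.10 and 8.14 RPKM in dKO_Flt3ITD libraries, 13.3, 10.9, 7.52 and 7.92 RPKM in dKO libraries and 15.6, 24.8, 25.8 and 22.3 RPKM in control libraries. Both mutant groups lay below all control libraries, with dKO 1 at 13.3 RPKM nearest to control 1 at 15.6 RPKM. The log2 fold changes against control were −1.24 ± 0.38 in dKO_Flt3ITD (limma adjusted p = 0.141) and −1.09 ± 0.38 in dKO (adjusted p = 0.287). Slc39a10 lies on chromosome 1, 46807544 to 46892852, minus strand. Its relative Slc39a6 stood at 9.91 ± 4.05, 9.94 ± 4.59 and 22.2 ± 12.7 RPKM in the same order of groups, with fold changes of −1.02 and −1.05 against control (adjusted p = 0.383 and 0.536).

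The Golgi zinc carrier Slc30a7 had 2.76, 8.10, 1.495 and 7.44 RPKM in dKO_Flt3ITD libraries, 6.69, 8.25, 8.29 and 7.19 RPKM in dKO libraries and 13.7, 12.1, 8.17 and 11.97 RPKM in control libraries. Its dKO_Flt3ITD libraries lay below all control libraries, the nearest being 8.10 RPKM in dKO_Flt3ITD 2 and 8.17 RPKM in control 3 (log2 fold change −1.25 ± 0.48, limma adjusted p = 0.256). Slc30a6, another zinc carrier of the secretory pathway, averaged 11.7 ± 7.97, 25.3 ± 10.1 and 10.7 ± 8.08 RPKM, and Slc30a5, which pairs with Slc30a6, 12.4 ± 1.88, 12.3 ± 9.46 and 14.96 ± 2.72 RPKM. Slc39a7, which releases zinc from the endoplasmic reticulum, had 20.5, 14.8, 17.5 and 16.01 RPKM in dKO_Flt3ITD and 1.30, 10.1, 13.5 and 8.44 RPKM in dKO libraries, without overlap, and overlapped with control at 3.76, 7.11, 19.8 and 20.3 RPKM. The difference between the mutant groups, 1.24 ± 0.60, did not pass (adjusted p = 0.654).

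Carriers of iron and copper did not pass the test either. The iron importer Slc11a2 averaged 1.49 ± 1.61, 2.37 ± 1.09 and 1.67 ± 1.54 RPKM in dKO_Flt3ITD, dKO and control libraries, and Slc11a1, known from the phagosomes of macrophages, 1.09 ± 0.429, 1.32 ± 0.706 and 1.10 ± 0.990 RPKM. The iron exporter Slc40a1 stayed below the threshold and was listed at 0 in 6 of 12 libraries, although control 4 held 8.25 RPKM. The copper importer Slc31a1 stood at 16.7 ± 9.96, 16.5 ± 6.92 and 10.6 ± 7.94 RPKM and Slc31a2 at 6.58 ± 5.71, 6.41 ± 4.79 and 2.52 ± 2.61 RPKM. The remaining zinc carriers Slc30a1, Slc30a4, Slc30a9, Slc39a4, Slc39a8, Slc39a9, Slc39a11 and Slc39a13 had group means between 0.336 and 10.2 RPKM.

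**Figure D5:**
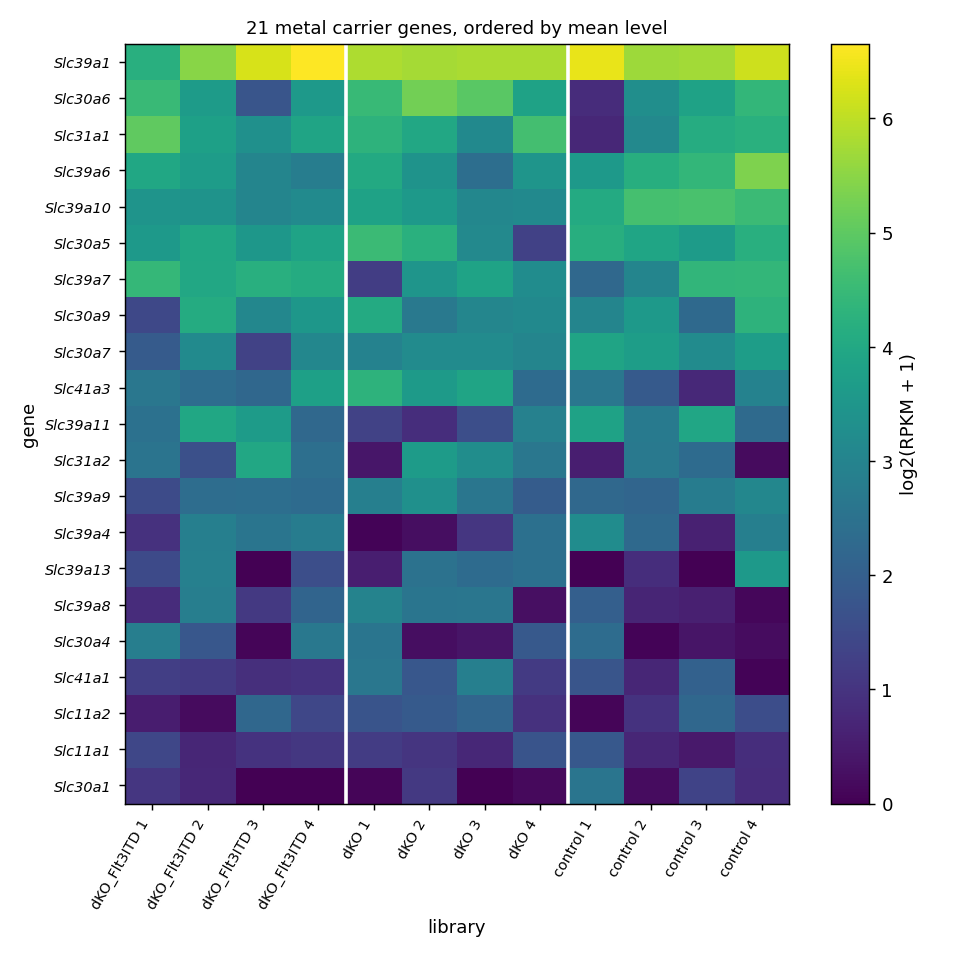
Log2(RPKM + 1) of the 21 metal carriers (rows, ordered by mean level) in the 12 libraries (columns, dKO_Flt3ITD, dKO and control from left to right), lighter colours standing for higher levels. Slc39a1 is the lightest row in most columns, and Slc39a10 is lighter in the control columns, at 15.6 to 25.8 RPKM, than in the mutant columns, at 7.10 to 13.3 RPKM.

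The phosphate importer Slc20a1, which also serves as a retrovirus receptor, had 0.256, 8.42, 6.07 and 10.7 RPKM in dKO_Flt3ITD libraries, 5.15, 14.0, 5.10 and 9.31 RPKM in dKO libraries and 43.1, 16.8, 16.01 and 25.7 RPKM in control libraries. All mutant libraries lay below all control libraries, and the lowest value by far was that of dKO_Flt3ITD 1. Its log2 fold changes were −2.13 ± 0.63 in dKO_Flt3ITD (limma adjusted p = 0.118) and −1.48 ± 0.63 in dKO (adjusted p = 0.453), each against control. Without dKO_Flt3ITD 1 the first was −1.41. The related importer Slc20a2 was low, at 2.90 ± 3.58, 2.05 ± 1.62 and 0.350 ± 0.395 RPKM. Its fold changes were 1.14 and 1.01, in the other direction, and neither passed. Slc20a2 reached 1 RPKM only in 2 dKO_Flt3ITD and 3 dKO libraries, so it entered the test only through the groups where it was high. The glucose-6-phosphate carrier Slc37a4 averaged 4.29 ± 3.20, 2.84 ± 3.34 and 5.22 ± 7.79 RPKM.

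Among the 16 ion and bicarbonate carriers Slc26a11 was the only one called in any comparison. Slc9a9, a sodium and proton exchanger of endosomes, had 14.8, 25.5, 28.7 and 2.56 RPKM in dKO_Flt3ITD libraries, 28.5, 29.8, 39.6 and 59.7 RPKM in dKO libraries and 20.4, 8.78, 16.4 and 18.3 RPKM in control libraries. Its dKO libraries lay above all control libraries and its dKO_Flt3ITD libraries overlapped with control (log2 fold change 1.25 ± 0.56 in dKO and −0.17 ± 0.56 in dKO_Flt3ITD, limma adjusted p = 0.499 and 0.941). The calcium exchanger Slc24a3 had 0, 1.16, 1.43 and 0.903 RPKM in dKO_Flt3ITD and 0.245, 0.153, 1.87 and 2.10 RPKM in dKO libraries, and was listed at 0 in all 4 control libraries. It reached 1 RPKM in 2 libraries of each mutant group, so it entered the test only through the groups where it was high. The mitochondrial exchanger Slc24a6, of the same family, averaged 1.87 ± 1.65 RPKM in dKO_Flt3ITD, 1.48 ± 0.992 RPKM in dKO and 1.13 ± 0.341 RPKM in control libraries.

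Among carriers of organic ions the cation carrier Slc22a3, which takes up monoamines, had 37.3, 61.8, 30.5 and 18.6 RPKM in dKO_Flt3ITD libraries, 56.9, 29.4, 44.9 and 38.8 RPKM in dKO libraries and 19.6, 17.2, 14.6 and 5.46 RPKM in control libraries. Its dKO libraries lay above all control libraries, while dKO_Flt3ITD 4 at 18.6 RPKM lay below control 1 at 19.6 RPKM. The log2 fold changes against control were 1.32 ± 0.44 in dKO_Flt3ITD (limma adjusted p = 0.179) and 1.60 ± 0.44 in dKO (adjusted p = 0.114). Slc22a17, a receptor for lipocalin 2, had 0.160, 0.187, 2.52 and 0.665 RPKM in dKO_Flt3ITD, 6.55, 2.55, 1.34 and 1.97 RPKM in dKO and 0, 0.437, 0 and 0.0151 RPKM in control libraries. It reached 1 RPKM in all 4 dKO libraries and 1 other, and so entered the test only through dKO. The dKO libraries lay above the others except dKO_Flt3ITD 3, and the log2 fold change of dKO against control was 1.75 ± 0.50 (adjusted p = 0.136). The ergothioneine carrier Slc22a4 was listed at 0 in all 4 control libraries and had 1.95, 0.0712, 1.38 and 0.310 RPKM in dKO_Flt3ITD and 0.0265, 0.0871, 2.30 and 1.66 RPKM in dKO libraries. Slc22a4 reached 1 RPKM in 2 libraries of each mutant group, so it entered the test only through the groups where it was high. No fold change is given against a group listed at 0.

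Of the 21 nucleotide sugar carriers Slc35d3 was the highest. In mice it is known for a role in platelet dense granules. It had 81.5, 119.6, 75.8 and 42.0 RPKM in dKO_Flt3ITD libraries, 155, 91.3, 57.8 and 97.2 RPKM in dKO libraries and 54.1, 22.2, 21.9 and 33.5 RPKM in control libraries. The dKO libraries lay above all control libraries, and of the dKO_Flt3ITD libraries only dKO_Flt3ITD 4 lay within the control range. The log2 fold changes against control were 1.26 ± 0.40 in dKO_Flt3ITD (limma adjusted p = 0.159) and 1.59 ± 0.40 in dKO (adjusted p = 0.0768), and neither passed. Without control 1 the second passed, with 1.86 and an adjusted p of 0.0450. The endoplasmic reticulum carrier Slc35b1 averaged 44.0 ± 11.9, 75.3 ± 33.6 and 39.6 ± 14.9 RPKM, and the group as a whole summed to 313 ± 32.8 RPKM in dKO_Flt3ITD, 373 ± 64.2 RPKM in dKO and 289 ± 31.4 RPKM in control libraries. The GDP-fucose carrier Slc35c1, whose cargo is needed for the fucose on Notch receptors, averaged 8.74 ± 3.41, 6.10 ± 1.41 and 7.67 ± 1.11 RPKM with fold changes of 0.10 and −0.30. Slc35e1 was higher in every dKO_Flt3ITD library than in any control library, with 3.59, 4.85, 3.85 and 6.10 RPKM in dKO_Flt3ITD against 1.61, 3.54, 2.05 and 2.74 RPKM in control libraries, a difference of 0.69 ± 0.47 that did not pass.

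The nucleoside carriers Slc29a1 and Slc29a2 differed in level. Slc29a1 averaged 40.4 ± 7.42 RPKM in dKO_Flt3ITD, 52.9 ± 16.4 RPKM in dKO and 52.8 ± 26.3 RPKM in control libraries (SD, n = 4 each). Slc29a2 had 3.39, 4.58, 6.81 and 2.95 RPKM in dKO_Flt3ITD libraries, 1.53, 0.611, 0 and 0.0217 RPKM in dKO libraries and 10.5, 5.64, 0.308 and 6.64 RPKM in control libraries. Its dKO_Flt3ITD libraries lay above all dKO libraries (log2 fold change 1.88 ± 0.62, limma adjusted p = 0.436), and 3 of 4 control libraries lay above all dKO libraries as well. The difference between dKO and control was −1.88 ± 0.62 (adjusted p = 0.239), and that between dKO_Flt3ITD and control was 0.00 ± 0.62. This was the carrier with the most positive fold change in dKO_Flt3ITD against dKO, where Slc26a11 had the most negative.

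The fatty acid carriers Slc27a1 and Slc27a2 had fold changes of opposite sign against control, none of which passed with all 12 libraries. Slc27a1, which is found in muscle and fat, had 6.77, 0.941, 1.06 and 1.30 RPKM in dKO_Flt3ITD libraries, 15.1, 4.06, 1.64 and 2.38 RPKM in dKO libraries and 11.5, 7.40, 10.6 and 11.5 RPKM in control libraries. All dKO_Flt3ITD libraries lay below all control libraries, with dKO_Flt3ITD 1 well above the other 3 (log2 fold change −1.94 ± 0.61, limma adjusted p = 0.151). Without the 3 libraries numbered 1 it passed, with −2.47 and an adjusted p of 0.0482. Slc27a2 had 0.223, 5.99, 0.669 and 5.64 RPKM in dKO_Flt3ITD libraries, 3.07, 4.28, 4.45 and 11.4 RPKM in dKO libraries and 0.0641, 1.81, 1.86 and 0.677 RPKM in control libraries. Its dKO libraries lay above all control libraries (1.66 ± 0.64, adjusted p = 0.368) and its dKO_Flt3ITD libraries overlapped with control. The choline carrier Slc44a2 averaged 46.0 ± 12.7, 45.0 ± 7.87 and 49.6 ± 14.7 RPKM.

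The monocarboxylate carriers outside the 2 left out by name were low. Slc16a6 had 0, 0.321, 0.0270 and 0.219 RPKM in dKO_Flt3ITD libraries, 0, 4.97, 1.16 and 0.357 RPKM in dKO libraries and 1.67, 2.26, 1.07 and 5.01 RPKM in control libraries, and its dKO_Flt3ITD libraries lay below all control libraries (log2 fold change −1.51 ± 0.55, limma adjusted p = 0.225). Outside control it reached 1 RPKM in 2 libraries, so it too entered the test only through the group where it was high. An exon of Slc16a6 overlaps Amz2 on the other strand, which averaged 13.26, 10.25 and 11.79 RPKM in dKO_Flt3ITD, dKO and control libraries. The pyruvate carrier Slc16a7 averaged 1.37 ± 1.87, 5.20 ± 5.28 and 7.93 ± 10.1 RPKM. Among vesicular carriers the monoamine carrier Slc18a2 was the highest of its family, with 1.79, 7.76, 13.9 and 27.2 RPKM in dKO_Flt3ITD libraries, 0.394, 37.5, 8.42 and 12.4 RPKM in dKO libraries and 46.9, 21.6, 23.0 and 40.2 RPKM in control libraries. The groups overlapped (log2 fold change −1.67 ± 0.82 in dKO_Flt3ITD and −1.83 ± 0.82 in dKO, each against control, adjusted p = 0.394 and 0.498). In the families grouped with sugars, the iodide carrier Slc5a5 had 8.50, 2.22, 14.7 and 0.549 RPKM in dKO_Flt3ITD libraries, 2.19, 1.08, 0.0847 and 1.82 RPKM in dKO libraries and 0, 0.908, 0.205 and 0 RPKM in control libraries. Its dKO_Flt3ITD libraries overlapped with control through dKO_Flt3ITD 4, the log2 fold change was 2.08 ± 0.65 (adjusted p = 0.142), and it passed when that library was left out. Slc5a5 reached 1 RPKM in only 3 libraries outside dKO_Flt3ITD, so it entered the test only with the group where it was high.

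Transport genes outside the selection were set beside the carriers. Of 17 tested carriers without a standard Slc symbol, such as the pyruvate carriers Mpc1 and Mpc2, none passed in any comparison, and 1 had an unadjusted p under 0.05 in each (13.4%, 9.18% and 7.71% of all genes in dKO_Flt3ITD against control, dKO against control and dKO_Flt3ITD against dKO). Of 25 tested ABC transporters, which pump their cargo at the cost of ATP, none passed in dKO_Flt3ITD against control. In dKO against control 2 passed, both higher, where 1.02% of all genes passed in either direction. An unadjusted p under 0.05 was found for 4 in each of these comparisons (13.4% and 9.18% of all genes). The 2 that passed were Abcc4 and Abcg3. Abcc4, an exporter of cyclic nucleotides, had 13.8 ± 11.9, 24.3 ± 8.12 and 1.91 ± 1.47 RPKM in dKO_Flt3ITD, dKO and control libraries (log2 fold change 3.23 ± 0.65, limma adjusted p = 0.0176). Abcg3 had 9.78 ± 7.80, 24.0 ± 12.4 and 0.220 ± 0.259 RPKM (4.14 ± 0.71, adjusted p = 0.00590). Abcg3 reached 1 RPKM in 7 libraries, including all 4 of dKO, so it entered the test only with the group where it was highest. None of the 2 chaperones of Slc16 carriers, the 8 tested of ATF4 and its amino acid response targets, or the 9 tested metal handling genes such as Tfrc and Fth1 passed in any comparison. An unadjusted p under 0.05 was found for 1 gene of the ATF4 list in dKO against control and 1 metal handling gene in dKO_Flt3ITD against control. With voom on recovered reads no gene of these lists passed, Abcc4 and Abcg3 included. The median log2 fold change of the ATF4 list was 0.28 in dKO_Flt3ITD and 0.44 in dKO, each against control, against 0.0 and 0.01 for all genes.

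Among markers of other cells, only Emr1, Spic and Ctsg passed with limma, all in dKO_Flt3ITD against control. The summed level of 8 macrophage markers in the table was 50.4 to 154 RPKM in dKO_Flt3ITD, 45.6 to 141 RPKM in dKO and 19.2 to 66.8 RPKM in control libraries. Of 7 tested, Emr1 and Spic rose in dKO_Flt3ITD against control, as did 0.992% of all genes. Emr1 reached 1 RPKM in 6 libraries, including all 4 of dKO_Flt3ITD, so it entered the test only with the group where it was high. Other macrophage markers did not pass, with log2 fold changes of −1.57 for C1qb (4.85 RPKM in dKO_Flt3ITD and 13.4 RPKM in control libraries on average), 0.04 for C1qc and 0.07 for Cd68. The 4 granulocyte markers summed to 37.7 to 1317 RPKM, 24.4 to 133 RPKM and 66.4 to 243 RPKM in the same order, and Ctsg rose in dKO_Flt3ITD. Mpo, the granulocyte marker with the highest mean level, had 721 RPKM in dKO_Flt3ITD 4 but 7.71 to 56.5 RPKM in the other 3 dKO_Flt3ITD libraries, below all control libraries at 66.0 to 229.7 RPKM (log2 fold change −1.50, limma adjusted p = 0.542). The 2 mast cell and basophil markers in the table summed to 187 to 566 RPKM, 118 to 319 RPKM and 16.2 to 122 RPKM, without overlap between dKO_Flt3ITD and control. Cpa3 made up most of that sum (log2 fold change 2.19, limma adjusted p = 0.0541), while Mcpt8 averaged 4.04 RPKM in dKO_Flt3ITD and 7.62 RPKM in control libraries (−0.97, adjusted p = 0.746). None of these 3 lists had a call in dKO against control. Elane, a granulocyte marker below the threshold, was listed at 0 in all 4 control libraries and in every dKO library but dKO 2. In dKO_Flt3ITD libraries it had 8.78, 0.117, 0.0440 and 105 RPKM. Of the later thymocyte, B cell, dendritic cell, natural killer cell and thymic stroma markers none passed in any comparison. At an unadjusted p under 0.05 there were 2 dendritic cell markers and 1 natural killer cell marker in dKO_Flt3ITD against control (13.4% of all genes). In dKO against control there were 2 later thymocyte markers and 1 dendritic cell marker (9.18% of all genes). Summed, 6 later thymocyte markers had 6.16 to 61.6 RPKM in dKO_Flt3ITD, 61.4 to 141 in dKO and 16.4 to 39.6 in control libraries. The dKO libraries thus lay above control. Rag2 made up most of the dKO sums, with 84.2 RPKM on average in dKO and 12.4 RPKM in control libraries. Cd8a and Cd8b1, below the threshold, averaged 0.454 and 0.0975 RPKM in dKO and 1.15 and 0.113 RPKM in control libraries. Of the 4 tested, Rag2 had 2.80, Cd4 1.39, Rag1 0.87 and Ptcra −0.98 in dKO against control. The dendritic cell markers had opposite signs in dKO_Flt3ITD, −1.52 for Flt3, which carries the duplication there and is also on the early thymic progenitor list, and 1.04 for Bst2. In dKO Flt3 had −1.45. With voom no marker of other cells passed, Emr1, Spic and Ctsg included. Of the erythroid markers only Alas2 was in the table, at 0.479 RPKM or less in dKO_Flt3ITD and 0.558 RPKM or less in control libraries. In dKO 1 it had 32.1 RPKM, against 0.796 RPKM or less in the rest of dKO. The part of these cells in the values of Slc25a1, Slc26a11, Slc38a2 and the other carriers was not tested.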

How the data were processed

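Messenger RNA was measured in 12 libraries of 100 sorted cells each. The values are RPKM, which the authors deposited as 1 table; per the submitters' processing notes TopHat2 2.0.10, SAMtools 0.1.19, HTSeq 0.5.4p5 and the build mm10 were used, and which total the authors divided by is not given in the sources used here. Whole reads recovered from the steps of the deposited RPKM were whole within 0.001 for 13011 genes (99.96%). At 5 to 15 RPKM the counting error was 3.54% to 4.94%, which covers counting error only, because reads copied from the same cDNA are not separate molecules. Between libraries of a group the chi-square per degree of freedom was 114 to 559, so none was counted as a duplicate.

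Groups came from the sample titles. Differences in log2(RPKM + 1) were tested with limma 3.58.1 (R 4.3.3, trended variance). A single model held all 12 libraries, leaving 9 residual degrees of freedom. It covered the 10690 genes that reached 1 RPKM in 4 or more libraries, with Benjamini-Hochberg adjustment at 0.05. The steps were tested on simulated data. The carriers and gene lists were chosen with earlier results of these data known. Named are carriers that passed; per comparison up to 12 each way with an unadjusted p under 0.05 and no overlap; the 15 highest; the highest of families with at least 3 members; Slc3a2 and Slc7 light chains; iron, copper and zinc carriers; and those nearest the threshold. A carrier that this rule names is not reported here. Further carriers were named after their values were seen. Positions are from GENCODE mouse release 21 (GRCm38), where all 163 were placed, 1 by an older symbol. Alternatives were pseudocounts of 0.1 and 0.5, other filters and scalings, no trend, array weights, voom on the recovered reads, a replicate term, only the 8 libraries compared, and leaving out libraries. Python 3.11.15, pandas 2.3.3 and matplotlib 3.10.9 were used.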

Additional observations from a re-analysis of the deposited data

Results flagged for a closer look

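Among 228 groups of 4 values, 20 (8.77%) held 1 library far from the other 3 by Dixon's test, where chance gives about 1 in 20. Of these 20 values 12 were in the libraries numbered 1, with 4 in dKO_Flt3ITD 1, 2 in dKO 1 and 6 in control 1. In 3 of these 12 the other 3 libraries of the group were listed at 0, where any value above 0 stands apart by this test: Slc25a35 in dKO_Flt3ITD 1 and dKO 1, and Slc36a4 in control 1. The carrier Slc25a35 stood apart in all 3, at 1.27 RPKM in dKO_Flt3ITD 1, 0.0328 RPKM in dKO 1 and 15.7 RPKM in control 1. In dKO_Flt3ITD 1 the fatty acid carrier Slc27a1 was high at 6.77 RPKM, the zinc carrier Slc39a9 was low at 1.85 RPKM, and the summed organic acid and monocarboxylate carriers were low at 6.14 RPKM. The zinc carrier Slc39a13 was low at 0.474 RPKM in dKO 1 and high at 11.1 RPKM in control 4.

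In control 1 the malate carrier Slc25a11 was low at 14.4 RPKM. The taurine carrier Slc6a6 was high there at 21.4 RPKM, Slc7a14 at 32.1 RPKM, the zinc carrier Slc30a4 at 4.10 RPKM and Slc36a4 at 0.305 RPKM. In the other libraries, the exporter Slc30a1 was high at 1.15 RPKM in dKO 2, and Slc27a2 at 11.4 RPKM in dKO 4. In control 2, Slc22a17 was high at 0.437 RPKM. In control 3, Slc25a39 was high at 61.8 RPKM and Slc2a8 at 1.00 RPKM. In control 4 the sugar carrier Slc50a1 was high at 206 RPKM, and with it the summed sugar carriers at 216 RPKM.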

How the results depend on the processing

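In dKO_Flt3ITD against control, the count of 2 carriers became 1 without a filter (Slc25a1), 1 without the 3 libraries numbered 1 (Slc27a1, with both others lost), 0 with voom, and 1 to 4 when 1 library was left out. Array weights called 3, Slc25a1, Slc35d3 and Slc38a2. The count was 4 without dKO_Flt3ITD 4 and 1, Slc25a1, without control 1, control 3, control 4, dKO_Flt3ITD 1 or dKO_Flt3ITD 2. The count over all genes, 160, became 91 without a filter, 27 with voom, 105 without the libraries numbered 1, and 94 to 187 when 1 library was left out. In dKO against control, array weights gave 3 carriers in place of 0, namely Slc25a35, Slc35d3 and Slc39a10, and leaving out 1 library gave 0 to 1, namely Slc35d3 without control 1 and Slc29a2 without control 3. The count over all genes, 109, became 64 without a filter, 210 with array weights, 5 with voom, 45 without the libraries numbered 1, and 58 to 95 when 1 library was left out. In dKO_Flt3ITD against dKO no alternative called a carrier. The count over all genes, 0, became 1 without a filter, with a filter of 5 RPKM, with only the 8 libraries compared and without the libraries numbered 1, 2 with rescaled sums or array weights, 5 with quantile normalization, and 0 to 6 when 1 library was left out. The causes were not tested. Whether libraries with the same replicate number belong together is not stated in the labels. The correlation of same-numbered deviations was −0.147 to 0.126, which cannot decide it with so few libraries. With replicate number as a block the counts were 116 genes and 2 carriers in dKO_Flt3ITD against control, 85 and 0 in dKO against control, and 0 and 0 in dKO_Flt3ITD against dKO. For carriers that passed or did not overlap at an unadjusted p under 0.05, 474 fold changes were refitted, 1 per carrier, comparison and alternative. Of these, 456 kept their direction and side of the threshold, 7 came to pass, 11 no longer passed and 0 reversed. The 11 all belonged to Slc25a1 and Slc26a11 in dKO_Flt3ITD against control, with 20 alternatives each. The rest started from differences that had not passed. Rescaled sums moved the median fold change of all genes to −0.21, −0.11 and −0.09 in the 3 comparisons. Read depth was not varied.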
